A study of Mus musculus with 16 samples.

Results

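The wild-type whole mouse prostate was set against the wild-type dorsal-lateral prostate (DLP), the dorsal and lateral lobes of the same gland. The groups were taken from the array titles and tissue labels: 2 of the 16 arrays of the series held wild-type whole prostate and 2 held wild-type DLP. The other arrays held tissue of TRAMP mice, a cancer model whose transgene puts the SV40 T antigen under a promoter fragment of rat probasin: 6 with DLP of vehicle or treated mice at 16 or 28 weeks, and 6 with neuroendocrine carcinomas (NECa). Each array was an Illumina bead array hybridised with RNA of 1 sample.

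The whole prostates carried no transgene by their genotype label, were given an age range of 24 to 28 weeks, and had TRAMP in their strain field. The DLP samples were wild type with C57BL/6 in their strain field, 1 aged 16 weeks and 1 aged 28 weeks. No treatment was named for either group. Dissection, strain label and age therefore cannot be told apart in this comparison, and the spread within DLP holds the difference between the ages. Whether the arrays came from separate animals or from pooled RNA was not given in the sources used here, so a p-value here reflects only how far these samples varied, which may be technical.

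The mouse prostate is built of paired anterior, ventral, dorsal and lateral lobes, and each lobe secretes its own mixture of proteins into the urethra. The anterior lobe, or coagulating gland, lies along the seminal vesicle and, together with the dorsal lobe, is known for the transglutaminase Tgm4, which crosslinks proteins of the copulatory plug. The ventral lobe is known for the spermine-binding protein Sbp, and the dorsal and lateral lobes for probasin (Pbsn) and the microseminoprotein Msmb. A whole prostate contains the DLP as well as the anterior and ventral lobes, and striated muscle of the urethra and tissue of the neighbouring glands can remain on either dissection.

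Promoters of Tgm4 and Pbsn are shown because these genes are used below as secretory marks, Tgm4 of the coagulating gland and dorsal lobe and Pbsn of the DLP. The mouse Pbsn window is not the rat fragment of the TRAMP transgene. Each sequence runs from 250 bases before the gene's start to 50 bases after it, from RefSeq on GRCm38.p6, at chr9:123034491-123034790 on the plus strand for Tgm4 and chrX:77853451-77853750 on the minus strand for Pbsn. Capitals mark the letters TGTTCT, which form part of the binding sequence of the androgen receptor, or their reverse complement AGAACA, searched on both strands.
Tgm4: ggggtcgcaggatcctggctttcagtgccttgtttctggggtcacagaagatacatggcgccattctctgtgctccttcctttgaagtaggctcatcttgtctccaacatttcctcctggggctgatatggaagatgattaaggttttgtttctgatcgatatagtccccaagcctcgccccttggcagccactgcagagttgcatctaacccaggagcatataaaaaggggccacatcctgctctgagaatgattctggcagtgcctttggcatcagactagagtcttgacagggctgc
Pbsn: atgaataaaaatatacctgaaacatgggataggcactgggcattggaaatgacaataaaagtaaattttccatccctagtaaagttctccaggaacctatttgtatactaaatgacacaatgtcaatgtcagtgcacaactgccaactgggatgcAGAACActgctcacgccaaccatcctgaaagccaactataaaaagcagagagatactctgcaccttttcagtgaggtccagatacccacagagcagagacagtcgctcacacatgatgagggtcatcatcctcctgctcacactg
The Pbsn window held 1 match, which began 95 bases before the start (position -95), and the Tgm4 window held 0. These letters occur in 19% of all 32851 promoters of the same length, so a match or its absence is a description of the window only.

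The 4 arrays were alike in depth of signal at the middle of the scale but not at the top. Median intensities were 165 and 164 in whole prostate, against 159 and 157 in DLP. The highest intensities were 69911 and 66888 in whole prostate, against 48954 and 46305 in DLP, whereas the 99.9th percentile was 34220 and 33516 in whole prostate, against 32486 and 33021 in DLP. The top of the scale thus reached higher in whole prostate, although not every bright gene did, and the normalization is not described. The brightest probe was that of Mt1 on whole prostate 1, and that of Tgm4 on whole prostate 2 and both DLP arrays. For the bright secretory genes the difference after quantile normalization is given below. That scaling gives the brightest probe of every array the same value, so it cannot show a difference at the very top. Across probes the whole prostates correlated at r = 0.981 and the DLP arrays at r = 0.979, while pairs of 1 whole prostate and 1 DLP correlated at 0.968 to 0.980. Whole prostate 2 was thus about as close to the 16-week DLP (r = 0.980) as to whole prostate 1.

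Levels of skeletal muscle genes split the arrays across the groups. Over 58 measured skeletal muscle genes, the mean log2 level was 9.53 and 7.97 in whole prostates 1 and 2, against 7.76 and 9.25 in 16-week and 28-week DLP. Atp2a1, the calcium pump of fast muscle, read 11527 and 627 in whole prostate and 225 and 5315 in DLP. Mylpf, a fast myosin light chain, read 5125 and 302 in whole prostate and 234 and 5460 in DLP. Whole prostate 1 and the 28-week DLP were high, and whole prostate 2 and the 16-week DLP were low. By the rule, 136 genes (227 probes) were set apart as skeletal muscle, 78 of them outside the list but correlated with it at r of at least 0.9 over the 12 other arrays. The muscle list gave 0 called genes of 58.

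Several seminal vesicle genes, though not the brightest, followed the same split. Over 12 of 15 listed genes measured, the mean log2 level was 11.42 and 10.26 in whole prostate, against 10.50 and 12.03 in DLP. Svs3b, a secretory protein of the seminal vesicle, read 16815 and 990 in whole prostate and 2365 and 28385 in DLP. Sva, another seminal vesicle secretory gene, read 577 and 155 in whole prostate and 270 and 4746 in DLP. The highest array for both genes was the 28-week DLP, and the lowest was whole prostate 2. Svs3a (571 and 149 in whole prostate, 197 and 2443 in DLP) and Svs6 (3548 and 555 in whole prostate, 1184 and 8926 in DLP) had the same order. Svs4 and Pate4 of this list did not, and were higher in both whole prostates, as described below. Whether this tissue has a part in the differences below was not tested, beyond leaving out the muscle genes.

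**Figure D1:**
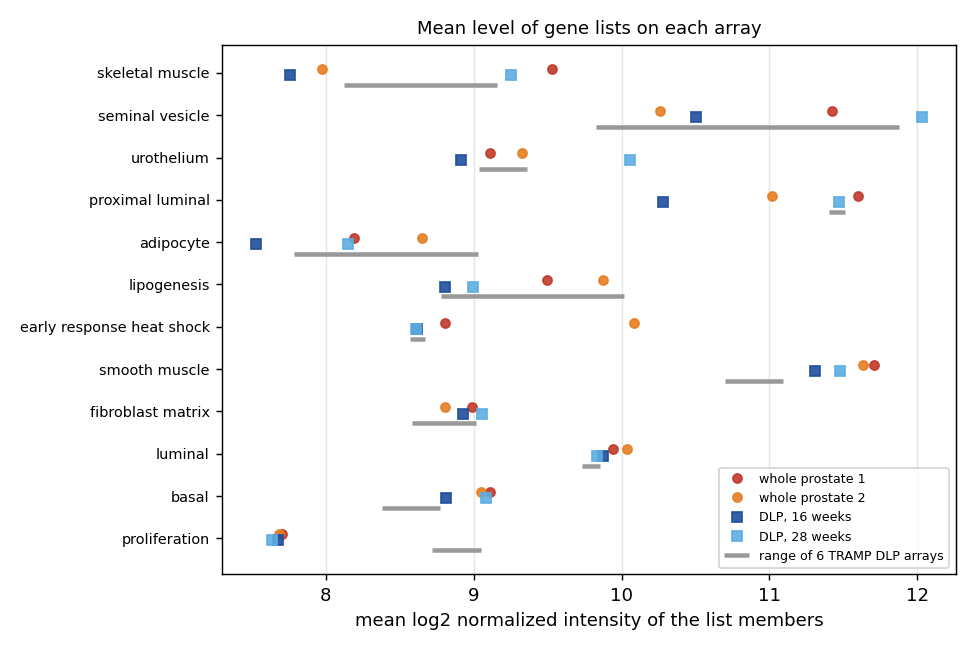
Mean log2 normalized intensity (x axis) of 12 gene lists (y axis) on the 2 whole prostate arrays (circles), the 2 wild-type DLP arrays (squares) and, as a grey bar, the range of the 6 TRAMP DLP arrays. Skeletal muscle and seminal vesicle levels pair whole prostate 1 with the 28-week DLP, early response and heat shock levels set whole prostate 2 apart at 10.09, and proliferation levels of all 4 wild-type arrays lie between 7.64 and 7.70, below the TRAMP DLP arrays.

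The wild-type label of the whole prostates was checked against proliferation genes, which are high in TRAMP tissue. Over 32 genes the mean log2 level was 7.70 and 7.68 in whole prostate, against 7.68 and 7.64 in wild-type DLP, while the 6 TRAMP DLP arrays lay between 8.72 and 9.05. The replication licensing gene Mcm5 read 316 and 318 in whole prostate, against 298 and 284 in wild-type DLP, and 2019 to 2751 in TRAMP DLP. On this measure the whole prostates lay with the wild-type DLP, which is what their genotype label states and their strain field does not.

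In the limma fit of the 4 arrays, 8 probes were higher in whole prostate (0.0311% of 25697 tested) and 3 were lower (0.0117%), at a Benjamini-Hochberg adjusted p under 0.05. The fit had 2 residual degrees of freedom, its smallest adjusted p was 0.0309, and 168 further probes lay between 0.05 and 0.06. An unadjusted p under 0.05 was reached by 4128 probes. Leaving out the genes set apart as skeletal muscle before the fit, an alternative that was planned, gave 164 probes higher and 181 lower, the 11 calls above among them. Each remaining log2 difference was the same in both fits. What changed was the variance that limma shares across probes (prior degrees of freedom 6.46, and 7.64 without muscle genes) and the adjustment. With each gene represented by its brightest probe, 4 genes were higher (0.0241% of 16593) and 1 lower (0.00603%) in the 4-array fit, and 547 higher (3.3%) and 419 lower (2.53%) in a fit of all 16 arrays, whose spread comes mainly from the TRAMP groups. Without muscle genes, 121 genes were higher (0.735% of 16457) and 124 lower (0.753%). In none of these genes did the groups overlap, which the call largely set in advance with 2 arrays a group. Their median log2 difference, whole prostate minus DLP, was 0.97 for the higher genes and -0.94 for the lower genes, against 0.05 over all genes. Adjusted p-values below come from limma over all probes, and those given as without muscle genes come from the fit that left them out. Genes called without muscle genes were not always called in the fit of all 16 arrays. There the limma adjusted p was 0.662 for Gstm2, 0.434 for Synm, 0.365 for Serpina1f, 0.177 for H2-Aa and 0.131 for Fbln1. It was 0.499 for Tgm4, 0.163 for Svs4, 0.180 for Mt1 and 0.0789 for Cidea. Other genes were called there, among them Eif4ebp2 (0.00123) and Defb1 (0.000405). Without whole prostate 2 the 4-array fit called 0 probes, and without the 16-week DLP it called 177, so the count rests on single arrays. With 2 arrays a group an exact permutation test of 1 gene cannot go below p = 0.333.

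The called probes named 6 genes. Of the 5 probes of Actb, cytoplasmic beta-actin, 3 were called higher, and the brightest read 26636 and 25380 in whole prostate, against 13808 and 12620 in DLP (log2 difference 0.98 ± 0.11, SE of the fit, limma adjusted p = 0.0485, and 0.94 after quantile normalization). The dimmest Actb probe read 1226 and 1524 in whole prostate, against 289 and 301 in DLP, a log2 difference of 2.21 (limma adjusted p = 0.0309). All 5 Actb probes lay higher in both whole prostates, by 0.62 to 2.37. Tob2, of the antiproliferative Tob and BTG family, read 553 and 545 in whole prostate, against 253 and 225 in DLP (1.20 ± 0.14, limma adjusted p = 0.0485). Jund, a subunit of the AP-1 transcription factor, read 500 and 585 in whole prostate, against 216 and 215 in DLP (1.33 ± 0.14, limma adjusted p = 0.0427).

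Among the lower calls, Pgrmc1, a heme-binding membrane protein named for its link to progesterone, read 288 and 316 in whole prostate, against 850 and 807 in DLP (-1.46 ± 0.16, limma adjusted p = 0.0427). One probe of the ribosomal protein gene Rps3 read 1399 and 1590 in whole prostate, against 4307 and 5169 in DLP (-1.66 ± 0.20, limma adjusted p = 0.0485). The brighter Rps3 probe read 7212 and 7358 in whole prostate, against 9357 and 11077 in DLP, a smaller difference of -0.48 that was not called (limma adjusted p = 0.187). Mt1, a metal-binding metallothionein, was called higher, with 69911 and 64317 in whole prostate and 43491 and 43029 in DLP (0.63 ± 0.07, limma adjusted p = 0.0485). It is among the brightest probes, and with quantile normalization its difference was 0.15 (limma adjusted p = 0.337). That scaling makes the brightest probes of the arrays alike, so a small difference there was largely set in advance. The 3 other calls were probes with no gene name in the annotation used, 2 higher and 1 lower.

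Without the call, the requirement that both arrays of one group lie above both of the other was met by 8724 probes higher in whole prostate (33.9%) and 3821 lower (14.9%). This split depended on scaling: with quantile normalization it was 5876 and 5745, and with each array centred on its median 5138 and 6475. Of 1058 olfactory receptor genes, a family of which few members are known in prostate, 432 were higher (40.8%) and 42 lower (3.97%), at median intensities of 147 and 145 in whole prostate against 142 and 138 in DLP. Separation of the groups alone therefore describes a gene only where it is set beside those shares and beside the size of the difference. Of the 136 genes set apart as muscle, 20 were higher (14.7%) and 15 lower (11%).

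Since fewer than 10 genes were called in either direction, the genes with the 15 largest gaps between the groups were taken in each direction, whether or not they passed; a gap is the lowest array of the higher group minus the highest of the lower group on the log2 scale. All 30 had an adjusted p under 0.05 without muscle genes, and Jund, Tob2 and Pgrmc1 also in the full fit, where the others lay between 0.0518 and 0.0862.

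Of the 15 higher genes, Eif4ebp2, Pdpk1 and Stk4 encode regulators of translation and growth. Eif4ebp2, a repressor of cap-dependent translation, had the widest gap, with 1791 and 2009 in whole prostate against 731 and 498 in DLP (1.65 ± 0.23, limma adjusted p = 0.0518, and 0.0254 without muscle genes). Pdpk1, the kinase that activates AKT, read 1114 and 1145 in whole prostate and 516 and 490 in DLP, but its second probe differed by -0.01. Stk4, a kinase of the Hippo pathway, read 890 and 847 in whole prostate and 404 and 388 in DLP. For each of these the whole prostates lay within a narrow range well above both DLP arrays on the brightest probe. On the second Pdpk1 probe the groups overlapped, with 343 and 442 in whole prostate and 423 and 362 in DLP.

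Ogdh, Cox6a1 and Slc25a39 encode mitochondrial proteins. Ogdh, a subunit of the oxoglutarate dehydrogenase of the citric acid cycle, read 2087 and 1832 in whole prostate, against 837 and 818 in DLP (1.24 ± 0.19, limma adjusted p = 0.0525). Cox6a1, the non-muscle form of a cytochrome c oxidase subunit, read 10355 and 9913 in whole prostate, against 3819 and 4756 in DLP, and its second probe gave 1.13. Slc25a39, a mitochondrial carrier of glutathione, read 2158 and 1928 in whole prostate, against 927 and 803 in DLP. Gapdh, the glycolytic enzyme often used as a loading control and named here after its values were seen, read 11952 and 10215 in whole prostate, against 4434 and 5771 in DLP (1.13 ± 0.18, limma adjusted p = 0.0544, and 0.0295 without muscle genes). Both Gapdh probes and all Actb probes thus lay higher in whole prostate.

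Pnliprp1, related to pancreatic lipase, had the largest difference of the 15, at 3085 and 9195 in whole prostate against 483 and 1451 in DLP (2.67 ± 0.57, limma adjusted p = 0.0862, and 0.0496 without muscle genes). The arrays of each group differed by more than the gap between the groups. Mt3, a metallothionein best known from brain, read 968 and 2501 in whole prostate, against 276 and 436 in DLP (2.17 ± 0.41, and 159 to 202 in TRAMP DLP). Selenow, a selenoprotein, read 2049 and 1823 in whole prostate and 593 and 767 in DLP. The remaining higher genes were Fam222b at 1.47, Serinc2 at 1.21 on its brighter probe and 0.92 on the other, and Get3, which delivers tail-anchored proteins to the endoplasmic reticulum, at 1.20; Cidea is described with the fat genes.

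Of the 15 lower genes, Defb1, Tspan8 and Wif1 encode secreted or membrane proteins. Defb1, an antimicrobial beta-defensin, read 482 and 655 in whole prostate, against 2688 and 1626 in DLP (-1.90 ± 0.28, limma adjusted p = 0.0518, and 0.0267 without muscle genes). Tspan8, a tetraspanin of epithelial cell membranes, read 1506 and 1089 in whole prostate, against 3226 and 3831 in DLP, and 6015 to 7340 in TRAMP DLP. Wif1, a secreted inhibitor of Wnt ligands, read 385 and 424 in whole prostate, against 902 and 924 in DLP. Both DLP arrays lay above both whole prostates for these genes, and Tspan8 was higher still in the DLP of TRAMP mice.

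Sptssa, Idh2 and Mdh1, also among the lower genes, encode metabolic enzymes or their subunits. Sptssa, a small subunit of the enzyme that starts sphingolipid synthesis, read 662 and 921 in whole prostate, against 2369 and 2339 in DLP (-1.59 ± 0.22, limma adjusted p = 0.0518). Idh2, the mitochondrial isocitrate dehydrogenase, read 421 and 402 in whole prostate, against 994 and 978 in DLP. Mdh1, the cytosolic malate dehydrogenase, read 267 and 323 in whole prostate and 661 and 652 in DLP, while its 2 dimmer probes differed by 0.20 and -0.16. Ssbp1, which binds single-stranded mitochondrial DNA, differed by -1.30, but by -0.02 on its dimmer probe, which read close to background. Cyb5a (-1.27), a cytochrome that donates electrons to fatty acid and steroid enzymes, C1galt1c1 (-1.26), a chaperone for O-glycan synthesis, Selenok (-1.27), Rassf3 (-1.26), Dcun1d5 (-1.28), Ptma (-1.30) and the ribosomal gene Rps3a1 (-1.57) completed the 15.

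**Figure D2:**
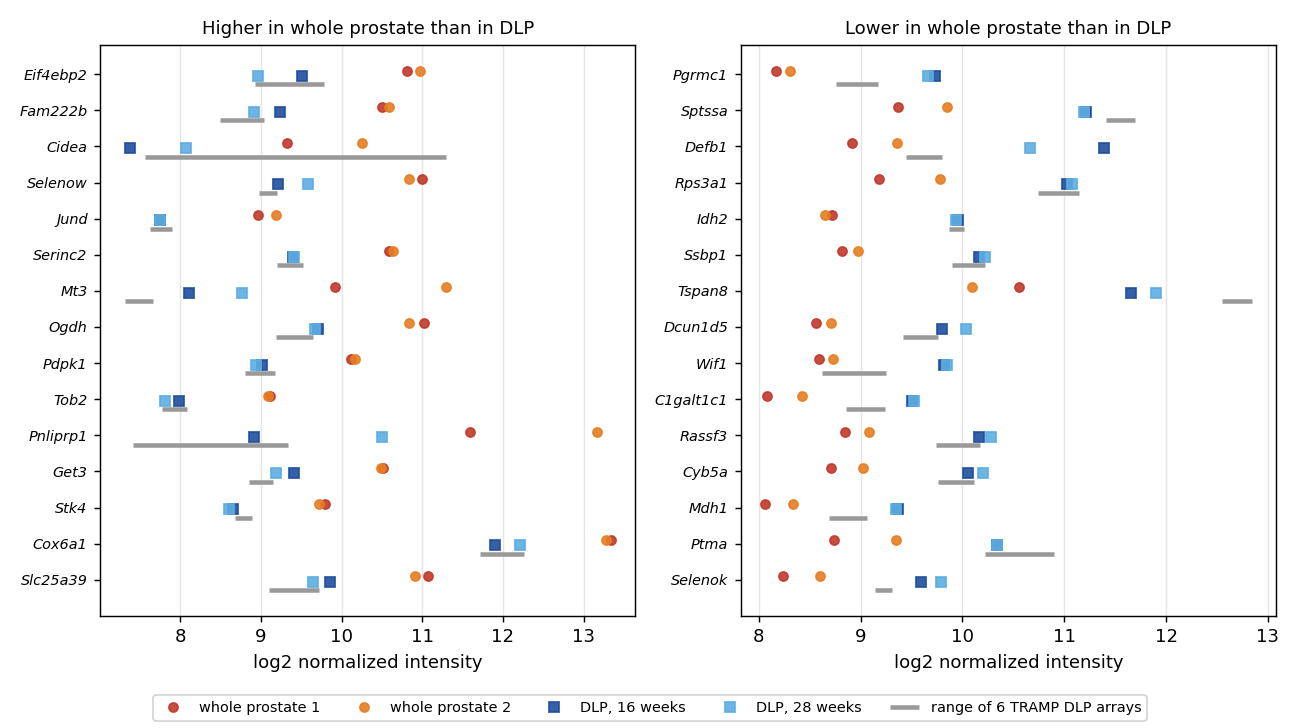
Log2 normalized intensity (x axis) of the 15 genes with the largest gap in each direction (y axis) on the whole prostate arrays (circles) and wild-type DLP arrays (squares), with the range of the 6 TRAMP DLP arrays as a grey bar. For every gene both circles lie on one side of both squares; the TRAMP range reaches or passes the circles for Cidea in the left panel and for Wif1 in the right panel.

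Few of the listed lobe genes separated whole prostate from DLP. Of 4 measured ventral markers, 2 were higher without overlap and 0 lower; of 5 anterior markers, 2 were higher and 0 lower; of 4 dorsolateral markers, 0 were higher and 1 lower, where 34.7% and 14.9% of all genes were higher and lower without overlap. None was called in the fit of the 4 arrays or of all 16, and Tgm4 was called without muscle genes. Median log2 differences were 0.33 for the ventral, 0.08 for the anterior and -0.17 for the dorsolateral list, against 0.05 over all genes.

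Of the genes listed with the lobes that only whole prostate includes, Tgm4 is also known from the dorsal lobe, a part of DLP. Tgm4 read 68468 and 66888 in whole prostate, against 48954 and 46305 in DLP (0.51 ± 0.07, limma adjusted p = 0.0518, and 0.0267 without muscle genes). With quantile normalization the Tgm4 difference was -0.02. Tgm4 was the brightest probe on whole prostate 2 and on both DLP arrays. This scaling gives the brightest probe of each array the same value, so the Tgm4 value was largely set in advance and shows no direction. Defb50, a beta-defensin listed with the anterior lobe, read 47333 and 53864 in whole prostate, against 37566 and 40392 in DLP (0.37 ± 0.09, limma adjusted p = 0.111), with 0.07 after quantile normalization. Spink1, a secreted trypsin inhibitor listed with the ventral lobe, read 50162 and 57676 in whole prostate, against 43654 and 30619 in DLP (0.56 ± 0.15, limma adjusted p = 0.146), with 0.33 after quantile normalization. All 3 were among the brightest probes in both tissues, so DLP too carried them at high level.

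Sbp, the textbook ventral lobe product, read 214 and 493 in whole prostate, against 286 and 139 in DLP (0.70 ± 0.40, limma adjusted p = 0.431). The 16-week DLP lay between the whole prostates, so the groups overlapped. The 28-week DLP lay at the level of the TRAMP DLP arrays (130 to 141), which is close to background. Olfactory receptor genes had medians of 138 to 147 on the 4 wild-type arrays. Sbpl, the other gene of that family on the list, was not measured. Azgp1, a secreted zinc-binding glycoprotein, read 15840 and 23750 in whole prostate and 20395 and 17073 in DLP on its brighter probe, and 1955 and 3414 in whole prostate and 4208 and 3893 in DLP on the other. Its brighter probe overlapped between the groups, and its dimmer probe lay lower in whole prostate (-0.65, limma adjusted p = 0.287). Gsdma, a gasdermin listed with the anterior lobe, read 2183 and 3256 in whole prostate and 1839 and 4559 in DLP, with the 28-week DLP highest. Hoxb13, Hoxd13 and Hoxa10, transcription factors of posterior body position, read 137 to 193 on all 4 arrays. This is near the median of the arrays, which lies little above the olfactory receptor medians of 138 to 147. At so low a signal their differences of 0.09, 0.08 and 0.03 say little about the lobes.

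Of the DLP genes, Msmb read 29421 and 41083 in whole prostate, against 46823 and 42115 in DLP (-0.35 ± 0.15, limma adjusted p = 0.290), with -0.62 after quantile normalization. Both whole prostates lay below both DLP arrays, but whole prostate 2 by a small margin only. Pbsn read 2199 and 3310 in whole prostate, against 1312 and 2557 in DLP (0.56 ± 0.33, limma adjusted p = 0.442), with overlap, and TRAMP DLP read 149 to 355. Wfdc3, of the family of whey acidic protease inhibitors, read 5911 and 14220 in whole prostate and 15509 and 5279 in DLP. Fgl1, a fibrinogen-like secreted protein, read 1915 and 3822 in whole prostate and 2138 and 5576 in DLP. For Pbsn, Wfdc3 and Fgl1 the arrays of 1 group differed by more than the groups did, and all 4 wild-type arrays lay above the whole TRAMP DLP range.

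**Figure D3:**
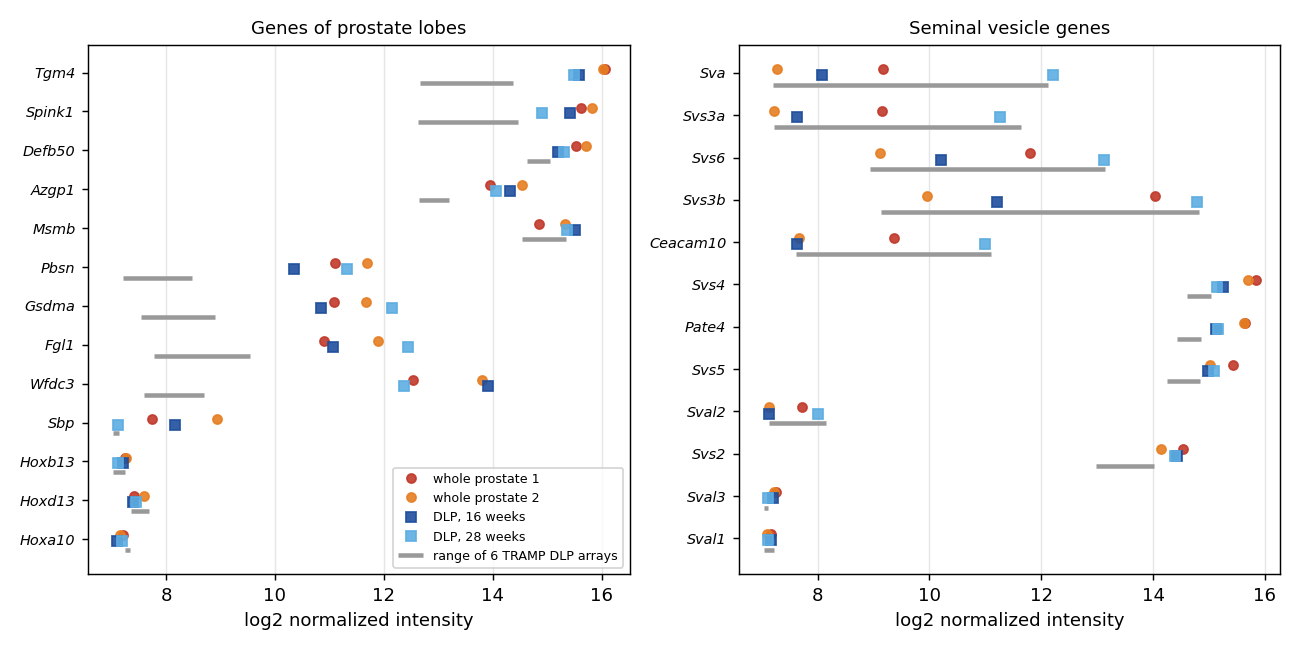
Log2 normalized intensity (x axis) of 13 lobe genes and 12 seminal vesicle genes (y axis) on the whole prostate arrays (circles) and wild-type DLP arrays (squares), with the range of the 6 TRAMP DLP arrays as a grey bar. Circles and squares overlap or lie close for most lobe genes, and the seminal vesicle genes Sva, Svs3a, Svs6, Svs3b and Ceacam10 are highest in the 28-week DLP and next highest in whole prostate 1.

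The brightest seminal vesicle genes were 2 of the 3 higher without overlap on that list of 12, and the 2 called without muscle genes. Over all genes 34.7% were higher without overlap, and 0.735% were called higher without muscle genes. Svs4, a major protein of the copulatory plug, read 58548 and 53255 in whole prostate, against 38836 and 36170 in DLP (0.58 ± 0.08, limma adjusted p = 0.0518, and 0.0267 without muscle genes), with 0.25 after quantile normalization. Pate4 read 51116 and 50432 in whole prostate, against 35598 and 36446 in DLP (0.50 ± 0.07, limma adjusted p = 0.0525), with 0.22 after quantile normalization. The ribosomal gene Rpl41, outside these lists, had a difference of 0.59 as deposited and 0.16 after quantile normalization. These differences shrank when the top of the scale was made alike, whereas Msmb, of similar brightness, lay lower in whole prostate on both scales.

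Genes of the proximal ducts, urothelium, basal and luminal layers gave 0 calls in the 4-array fit, with or without muscle genes. Over 8 proximal luminal genes, the mean log2 level was 11.60 and 11.02 in whole prostate, against 10.28 and 11.47 in DLP. Ppp1r1b, an inhibitor of a protein phosphatase, read 2616 and 1133 in whole prostate, against 572 and 852 in DLP (1.30 ± 0.37, limma adjusted p = 0.160), and its dimmer probes gave 0.01 and 0.43. Psca, a surface protein of proximal duct and bladder epithelium, read 4376 and 1763 in whole prostate and 434 and 5096 in DLP, with the DLP arrays at both ends. Cldn4, a tight junction protein, read 5480 and 5646 in whole prostate, against 3576 and 4255 in DLP. Upk1b, a uroplakin of urothelium, read 1880 and 2426 in whole prostate, against 3049 and 4537 in DLP (-0.80 ± 0.24, limma adjusted p = 0.179), while Upk3a and Upk1a, of the same family, lay at -0.60 and -0.54, and the second Upk1a probe at 0.20. Over all genes 34.7% were higher and 14.9% lower without overlap. Of 10 basal genes 3 were higher and 3 lower without overlap. Among them was the basal keratin Krt5 at 580 and 382 in whole prostate, against 239 and 356 in DLP. Krt14 lay at 0.62 and the laminin chain Lamb3 at 0.49. Of 15 luminal genes 5 were higher and 2 lower, near those shares. The largest differences were those of the tight junction gene Cldn3 at 0.46, the transcription factor Spdef at 0.46 and the cadherin Cdh1 at -0.44.

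Adipocyte genes gave 0 calls in the 4-array fit and 1, Cidea, without muscle genes. In bulk tissue more cells of a type and more RNA per cell cannot be told apart. Of 13 adipocyte genes 6 were higher and 0 lower without overlap, where 34.7% of all genes were higher and 14.9% lower, with a median difference of 0.30 against 0.05 over all genes. Cidea, a lipid droplet protein of brown fat, read 640 and 1221 in whole prostate, against 166 and 268 in DLP (2.07 ± 0.32, limma adjusted p = 0.0525, and 0.0267 without muscle genes). Ucp1, the uncoupling protein that defines brown fat, read 281 and 588 in whole prostate, against 146 and 182 in DLP (1.31 ± 0.29, limma adjusted p = 0.0966, and 0.0571 without muscle genes). Car3, a carbonic anhydrase of fat and muscle, read 732 and 1078 in whole prostate and 165 and 976 in DLP, with overlap. Cidea and Ucp1 varied widely among TRAMP DLP arrays, with Cidea at 190 to 2506 and Ucp1 at 154 to 1825, so a level like that of the whole prostates occurred in dissected DLP. The mean log2 level of the list was 8.19 and 8.65 in whole prostate, against 7.53 and 8.15 in DLP, and 7.78 to 9.03 in TRAMP DLP.

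Of 11 genes of fatty acid and triglyceride synthesis, a list written after the values were seen, 9 were higher and 1 lower without overlap (all genes 34.7% and 14.9%), with a median difference of 0.78. Without muscle genes 3 of them were called higher, against 0.735% of all genes. Thrsp, which promotes lipid synthesis, read 540 and 1239 in whole prostate, against 150 and 260 in DLP (2.05 ± 0.38, limma adjusted p = 0.0638, and 0.0351 without muscle genes). Dgat2, which makes triglyceride, read 844 and 1183 in whole prostate, against 244 and 498 in DLP (1.52 ± 0.32, limma adjusted p = 0.0824). Gpd1, which links glycolysis to glycerolipid synthesis, read 461 and 446 in whole prostate, against 226 and 208 in DLP (1.07 ± 0.13, limma adjusted p = 0.0518, and 0.0254 without muscle genes). Acaca, which makes malonyl-CoA for fatty acid synthesis, lay at 1.12 and was not called in either fit. These genes are also expressed by adipocytes, for whose markers the values stand above, and the part of fat tissue in their difference was not tested.

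Immediate early and heat shock genes, also listed after the values were seen, set whole prostate 2 apart. Their mean log2 level over 17 genes was 8.81 and 10.09 in whole prostate, against 8.62 and 8.61 in DLP. Egr1, an immediate early transcription factor, read 1229 and 17537 in whole prostate, against 1370 and 994 in DLP. Hspa1a, an inducible heat shock protein, read 460 and 4149 in whole prostate, against 543 and 419 in DLP. Whole prostate 1 lay within the DLP range for both genes, so they did not separate the groups (limma adjusted p = 0.351 for Egr1 and 0.386 for Hspa1a). Junb, another AP-1 subunit, was higher in both whole prostates, at 753 and 1083 against 394 and 435 in DLP (1.12 ± 0.21, limma adjusted p = 0.0642, and 0.0391 without muscle genes). The part of this response in the Jund and Junb differences was not tested.

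Smooth muscle, which surrounds the prostate ducts, had 10 of 17 genes higher and 1 lower without overlap, beside 34.7% and 14.9% of all genes, at a median difference of 0.13. Synm, the intermediate filament protein synemin, read 4534 and 4155 in whole prostate, against 2107 and 2063 in DLP (1.06 ± 0.18, limma adjusted p = 0.0583, and 0.0350 without muscle genes), but its 2 dimmer probes gave -0.50 and 0.18. Pgm5, found at muscle adhesion sites, read 1175 and 1545 in whole prostate, against 745 and 760 in DLP (0.84 ± 0.20, limma adjusted p = 0.113). Smtn, the smooth muscle protein smoothelin, had the next largest difference, at 0.60. Of 17 fibroblast and matrix genes 3 were higher and 7 lower. Fbln1, the matrix protein fibulin, read 722 and 659 in whole prostate, against 1303 and 1778 in DLP (-1.14 ± 0.21, limma adjusted p = 0.0642, and 0.0396 without muscle genes), with -0.09 and -0.18 on its dimmer probes. Pdgfra, a receptor of fibroblasts, lay at -0.70 and Col6a2, a collagen chain, at 0.72, and neither was called in either fit.

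Counts in gene families and in lists of cell function are read against the 34.7% of all genes that were higher and the 14.9% that were lower without overlap. Of 41 beta-defensin genes 17 were higher and 7 lower, near those shares. Beside Defb1 the largest differences were those of Defb10, at 309 and 412 in whole prostate against 1491 and 630 in DLP, and of Defb30, at 338 and 333 in whole prostate against 505 and 527 in DLP. Defb10 was itself among the genes set apart with muscle. Serpina1f, a protease inhibitor of the serpin family, read 1427 and 1159 in whole prostate, against 2599 and 2724 in DLP (-1.05 ± 0.20, limma adjusted p = 0.0665, and 0.0424 without muscle genes), and was the largest of 49 serpin genes, 12 higher and 9 lower, before Serpinb1a at -0.30 and Serpinh1 at -0.25. Of 8 secretoglobins, a list added after the values were seen, 5 were higher and 0 lower, led by Scgb2b26 at 3902 and 12378 in whole prostate against 3542 and 950 in DLP (1.92 ± 0.64, limma adjusted p = 0.206), with Scgb2b27 at 1.70 and Scgb1b27 at 0.97. These genes encode small secreted proteins, and the brightest probe of Scgb2b26 lay lowest in the 28-week DLP. Of 21 glutathione transferase genes 3 were higher and 3 lower. Gstm2 read 25074 and 21432 in whole prostate, against 14685 and 15047 in DLP (0.64 ± 0.12, limma adjusted p = 0.0642, and 0.0401 without muscle genes), with 0.59 after quantile normalization, while Gsta3 and Gstt3 lay at -0.64 and -0.56. Mt2, the partner of Mt1, lay at -0.59, opposite to Mt1 and Mt3.

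Lists of cell function held few calls. Of 24 genes of protein folding in the endoplasmic reticulum, 7 were higher and 2 lower without overlap, and Dnajb9, a chaperone of that compartment, read 853 and 1114 in whole prostate, against 2007 and 2149 in DLP (-1.09 ± 0.21, limma adjusted p = 0.0669, and 0.0424 without muscle genes), with 0.16 on a dimmer probe. Ddit3, a stress-induced transcription factor, lay at 1.05 and the disulfide isomerase Pdia6 at -0.57, neither called. Of 11 polyamine genes, whose products feed the high spermine of prostate fluid, 4 were higher and 2 lower. Arg2, a mitochondrial arginase, lay at -1.02, Smox, the spermine oxidase, at 0.81 and Srm, the spermidine synthase, at 0.62, and none was called in either fit. Of 13 androgen-responsive genes 0 were higher and 3 lower, at a median difference of -0.01. Of 30 homeobox genes of body position 8 were higher and 5 lower, with Hoxd9 the largest at 977 and 576 in whole prostate, against 442 and 402 in DLP (0.83 ± 0.25, limma adjusted p = 0.170), before Hoxb6 at 0.63 and Hoxb7 at -0.41.

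Of 17 immune genes 7 were higher and 3 lower without overlap, near the 34.7% and 14.9% of all genes. H2-Aa, a chain of the class II antigen-presenting complex, read 334 and 301 in whole prostate, against 571 and 570 in DLP (-0.85 ± 0.15, limma adjusted p = 0.0586, and 0.0358 without muscle genes). Cd74, the invariant chain of the same complex, lay the other way, at 3800 and 1921 in whole prostate against 1571 and 1482 in DLP, and the complement gene C1qb lay at 0.51. Syp, a synaptic vesicle protein, read 501 and 475 in whole prostate, against 247 and 287 in DLP (0.87 ± 0.15, limma adjusted p = 0.0571, and 0.0322 without muscle genes), while Scg5 and Ddc lay at -0.24 and -0.23 and the median difference of the 10 neuroendocrine genes was 0.02. Of 72 cytosolic ribosomal proteins 18 were higher and 30 lower, and of 76 mitochondrial ribosomal proteins 15 were higher and 24 lower, at medians of -0.06 and -0.05 (lists added after the values were seen). Rpl35a, of the cytosolic ribosome, read 4541 and 6513 in whole prostate, against 10325 and 12490 in DLP (-1.06 ± 0.20, limma adjusted p = 0.0665, and 0.0400 without muscle genes), the largest such difference after Rps3a1 and before Rpl36a at -0.61. Without muscle genes 3 of the 72 were called higher and 2 lower, against 0.735% and 0.753% of all genes. The higher ones were the very bright Rpl41 (0.59), Rpl23 (0.52) and Rpl38 (0.48). Mrpl52, Mrps18c and Mrpl20 of the mitochondrial ribosome lay at -1.31, -0.94 and -0.87, and Mrpl52 was called without muscle genes (limma adjusted p = 0.0361). Beside the same shares over all genes, the remaining lists gave, higher and lower without overlap, 2 and 2 of 9 endothelial genes, 3 and 2 of 9 genes of epididymis and vas deferens, 1 and 1 of 6 Schwann cell genes, 6 and 5 of 18 glycosylation genes, 5 and 7 of 23 zinc and metallothionein genes, 10 and 4 of 32 proliferation genes, 7 and 2 of 23 kallikreins, 8 and 2 of 21 cystatins, 2 and 2 of 10 Spink genes and 2 and 1 of 15 Wfdc genes.

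The TRAMP arrays, which the comparison did not use, were read for the 121 higher and 124 lower genes. All 6 TRAMP DLP arrays lay below both whole prostates for 112 of the 121 higher genes (92.6%, against 38.6% of all genes) and above both for 114 of the 124 lower genes (91.9%, against 12.2%). These counts share the whole prostate arrays with the choice of genes, so the share over the called genes is partly set by that choice. NECa and TRAMP DLP share no array with the fit that called these genes. They did enter the choice of each gene's probe and the rule that set muscle genes apart. All 6 NECa lay below all 6 TRAMP DLP arrays for 93 of the 124 lower genes (75%, against 16.7% of all genes) and above for 4 (3.23%), with a median log2 difference of -0.82. For the 121 higher genes all 6 NECa lay above in 52 (43%, against 23.1% of all genes) and below in 22 (18.2%), with a median of 0.20, where the median over all genes was 0.11. The genes lower in whole prostate than in DLP were thus mostly also lower in carcinoma than in TRAMP DLP. The design text names the whole prostates together with the NECa and apart from the DLP, and any handling that those 2 sets shared cannot be told apart from tissue.

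**Figure D4:**
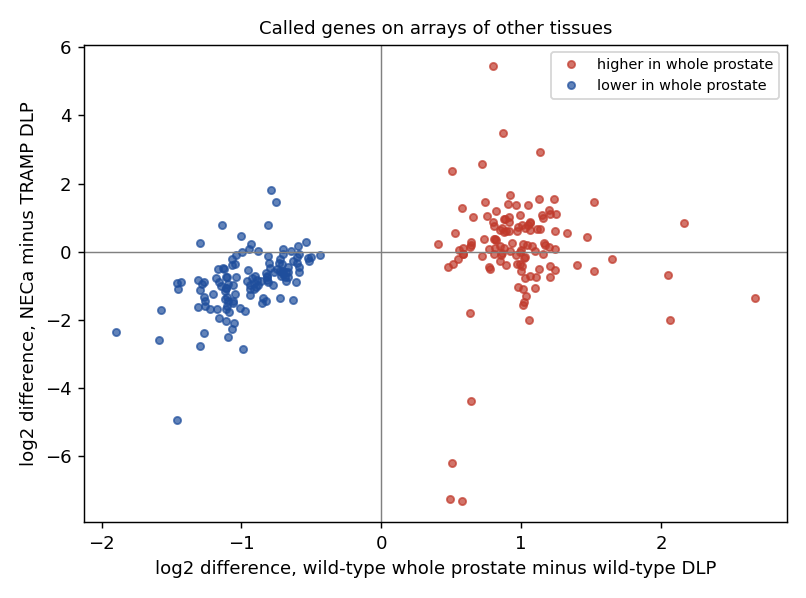
Log2 difference of NECa minus TRAMP DLP (y axis, 6 arrays each) against that of wild-type whole prostate minus wild-type DLP (x axis, 2 arrays each) for the 121 genes higher and 124 genes lower in whole prostate. Most of the lower genes lie below 0 on the y axis, while the higher genes spread to both sides of 0.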

How the data were processed

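The deposited series table held linear, normalized intensity values of 25697 probes on 16 Illumina arrays, made by the authors with lumi, per the submitters' processing notes, with no version. How normalization and background were handled was not given in the sources used here. A second table, before normalization, was left out, since its 32 per-sample columns had names that matched no label. Probe names came from the platform annotation: 23978 probes had 1 symbol, 0 had several and 1719 had none. After log2 transformation, limma 3.58.1 (R 4.3.3) was run (lmFit, eBayes with an intensity trend) on the 4 wild-type arrays, two-sided, with Benjamini-Hochberg adjustment over all probes. On simulated data with independent noise, the fit was checked only for recovering the mean planted change. False calls and the ability to detect a change were not criteria of that check. Each gene was read from its probe of highest mean level over the 16 arrays. Named were the genes with the 15 largest gaps in each direction, without clone names and muscle genes, all lobe genes, and members with large differences of the other lists, usually the 3 largest; values outside this rule are said to be so or serve to show a pattern across arrays. The groups, the 31 lists and the rules were chosen with earlier results of these data known; 7 further lists were added after the values were seen. RefSeq promoters of GRCm38.p6 were matched by symbol. The number of arrays limits the precision.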

Additional observations from a re-analysis of the deposited data

How the results depend on the processing

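Against 11 calls (8 higher, 3 lower) the alternatives gave the following counts. Quantile normalization gave 8 calls, 5 higher and 3 lower. Centring on medians, probes above the median level and a fit without the intensity trend each gave 0 calls (0 higher, 0 lower). They had 3650, 2856 and 4082 probes at an unadjusted p under 0.05, of 25697, 12848 and 25697 tested. Background correction by normexp gave 3 calls, 3 higher and 0 lower. The fit of all 16 arrays gave 1398 (768 higher, 630 lower), 1355 with a muscle covariate (751 and 604), and 1397 when absence of overlap was also required (767 and 630), a rule added after the data were seen. Leaving out muscle genes gave 345 (164 and 181). Leaving out 1 array gave 0 to 177 calls (0 to 74 higher, 0 to 103 lower): 9 without whole prostate 1, 0 without whole prostate 2 (4064 at an unadjusted p under 0.05), 177 without the 16-week DLP and 55 without the 28-week DLP. The cause was not tested.

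Probes without overlap numbered 5745 lower with quantile normalization, and 5138 higher and 6475 lower with median centring. Of the 12848 probes above the median level, 4144 were higher and 2931 lower, beside 8724 and 3821 of all 25697. When 1 array was left out, 11438 to 13263 were higher and 6047 to 6960 lower, where fewer arrays have to be separated. The median difference of all probes was 0.05 as deposited, 0.00 with quantile normalization, -0.01 with centring and 0.10 with normexp. Of 396 alternative values of the 30 genes with the largest gaps, 2 had the opposite sign, both from another probe (Pdpk1 -0.0062, Mdh1 0.20). Over all 118 genes followed, 43 of 1568 values did, and none of these reversals was itself called. Quantile normalization turned Tgm4 (-0.024), Azgp1 (-0.0014), Hoxa10 (-0.013) and Wfdc3 (-0.077), where the Tgm4 value was largely set by the scaling. Centring turned Azgp1 (-0.0017), Hoxa10 (-0.026) and Wfdc3 (-0.038), and the muscle covariate turned Mylpf (-0.53). Other probes turned Azgp1 (-0.65), Dnajb9 (0.16), Synm (-0.50) and Upk1a (0.20). Leaving out 1 array gave -0.24 to 0.35 for Azgp1, -0.77 to 0.54 for Gsdma, -0.011 to 0.17 for Hoxd13, -0.016 to 0.079 for Hoxa10, -1.04 to 0.34 for Fgl1, -0.76 to 0.80 for Wfdc3, -0.14 to 2.43 for Car3, -0.054 to 3.12 for Hspa1a, -0.65 to 0.061 for Serpinb1a, -0.88 to 2.68 for Psca, -0.018 to 1.95 for Scgb1b27, -3.99 to 0.15 for Sva, -3.07 to 0.56 for Svs3a, -2.67 to 0.24 for Svs6, -3.05 to 1.04 for Svs3b, -0.98 to 3.58 for Atp2a1, -1.10 to 2.87 for Cox6a2, -2.13 to 2.41 for Mylpf and -1.89 to 0.69 for Upk3a. No paired analysis was possible because the DLP titles carry ages and no replicate number shared with the whole prostates.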
